A study of Mus musculus with 8 samples.

Results

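The transcripts of 10 antioxidant enzyme genes were followed through single mouse ovarian follicles. They are the glutathione peroxidases Gpx1, Gpx3, Gpx4, Gpx6, Gpx7 and Gpx8, the superoxide dismutases Sod1, Sod2 and Sod3, and catalase (Cat). The 10 genes were chosen by symbol from the 22270 genes listed in the deposited count tables. All 10 were in both tables and passed the filter on low counts that left 17925 genes for testing. The series holds 8 libraries of polyadenylated RNA from C57BL/6 mouse ovary, 1 follicle per library, with 2 libraries in each of 4 groups. PF-WT and SAF-WT are preantral and small antral follicles of wild type mice. PF-TF and SAF-TF are follicles of the same stages that the labels trace to transplanted female germline stem cells (FGSCs), cells reported to form oocytes after transplantation. No other allele, agent or dose is named for any group. The sources used here give neither the age of the mice nor the transplant hosts, and do not state which cells of a TF follicle came from the transplant. It is not stated whether both follicles of a group came from separate animals, so p-values measure only the spread between these libraries. TF and WT libraries were deposited in separate tables, and a processing batch that separates the tables cannot be told apart from the source of the follicles.

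Superoxide dismutases turn superoxide into hydrogen peroxide. Catalase and the glutathione peroxidases then reduce peroxides, Gpx1, Gpx3 and Gpx4 with electrons from glutathione. Sod1 works in the cytosol with copper and zinc, Sod2 in mitochondria with manganese, and Sod3 outside the cell. Gpx1 is the common cytosolic peroxidase, Gpx3 is secreted, Gpx4 reduces lipid peroxides inside membranes, Gpx7 and Gpx8 sit in the endoplasmic reticulum, and catalase sits in peroxisomes. In the ovary these enzymes act beside the oocyte and beside steroid-making cells, whose cytochrome P450 reactions release oxidants.

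The 6 peroxidase genes differ at the codon of the catalytic residue, and that difference divides the family in what follows. The coding sequences below are 30 bases of the GENCODE M21 transcript (GRCm38), 5′ to 3′ on the coding strand, with the catalytic codon in capitals. TGA is read there as selenocysteine in Gpx1, Gpx3 and Gpx4, by the annotation's own record. TGT and TGC are cysteine codons, found in Gpx6, Gpx7 and Gpx8 at the position aligned with that selenocysteine.
Gpx1 (chr9:108339439-108339468, plus strand): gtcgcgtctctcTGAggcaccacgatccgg
Gpx3 (chr11:54907244-54907273, plus strand): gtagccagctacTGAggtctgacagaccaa
Gpx4 (chr10:80054725-80054754, plus strand): gtggcctcgcaaTGAggcaaaactgacgta
Gpx6 (chr13:21313765-21313794, plus strand): gtggcatccttcTGTggcctgacagctacg
Gpx7 (chr4:108403415-108403444, minus strand): gtagctagcgaaTGTggcttcacagaccag
Gpx8 (chr13:113045646-113045675, minus strand): gtggctagtgacTGCcgcttcacagacaag
Each window lies within a single coding exon. The codon is number 47 of Gpx1, 73 of both Gpx3 and Gpx6, 129 of Gpx4, 56 of Gpx7 and 79 of Gpx8. Numbers are counted from the start codon of each gene's longest protein-coding transcript. Gpx4 has 3 protein-coding transcripts, and number 129 holds for Gpx4-201, of 253 codons.

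Total counts ran from 7656108 to 9805287 per library. Levels below are library-size normalised counts (CPM), scaled between libraries by TMM factors, and 3 counts, the limit that a count of 0 allows, correspond to 0.306 to 0.392 CPM before that scaling. Differences between groups are log2 fold changes ± SE from an edgeR quasi-likelihood fit over all 17925 genes, with Benjamini-Hochberg adjusted p-values, and a gene was called at an adjusted p under 0.05. The limit of 3 counts covers counting error alone. It takes reads as independent molecules, which libraries without molecular identifiers do not assure.

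Marker genes were set beside the labelled stages, and their values do not establish those stages. The stage names are used here as the labels give them. The oocyte genes Gdf9 and Bmp15 were present in all groups, with Gdf9 at 670 to 1274 CPM in PF-WT, 2323 to 2954 CPM in PF-TF, 24.8 to 81.8 CPM in SAF-WT and 27.0 to 27.9 CPM in SAF-TF. Amh, made by granulosa cells of growing follicles, was at 4.86 to 41.0 CPM in PF-WT and 27.5 to 49.7 CPM in PF-TF but only at 0.574 to 1.30 CPM in SAF-WT and 4.62 to 6.05 CPM in SAF-TF. Of the 10 granulosa markers, 5 were called lower in SAF in WT and 2 in TF, Amh and Inha at both sources, and none was called higher. Those not called did not share a direction, with Inhba at a mean of 5.37 CPM in PF-WT and 18.3 CPM in SAF-WT. Fshr was at 28.7 CPM in PF-TF and 29.5 CPM in SAF-TF. In WT, where it was called lower, it was at 25.6 CPM in PF-WT and 10.7 CPM in SAF-WT. The 10 granulosa markers summed to 2080 to 3285 CPM in PF-WT, 3592 to 3697 CPM in PF-TF, 772 to 885 CPM in SAF-WT and 1745 to 2653 CPM in SAF-TF. All 8 stroma and fibroblast markers were called higher in SAF at both sources. Of the 8 theca and interstitial markers, all were called higher in SAF in WT and 5 in TF. Luteal markers were high in SAF-TF, with the luteal gene Akr1c18 at 10530 to 11350 CPM in SAF-TF against 6.20 to 7.09 CPM in the 6 other libraries. In these whole follicles, fewer cells of a type and less RNA per cell cannot be told apart.

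**Figure D1:**
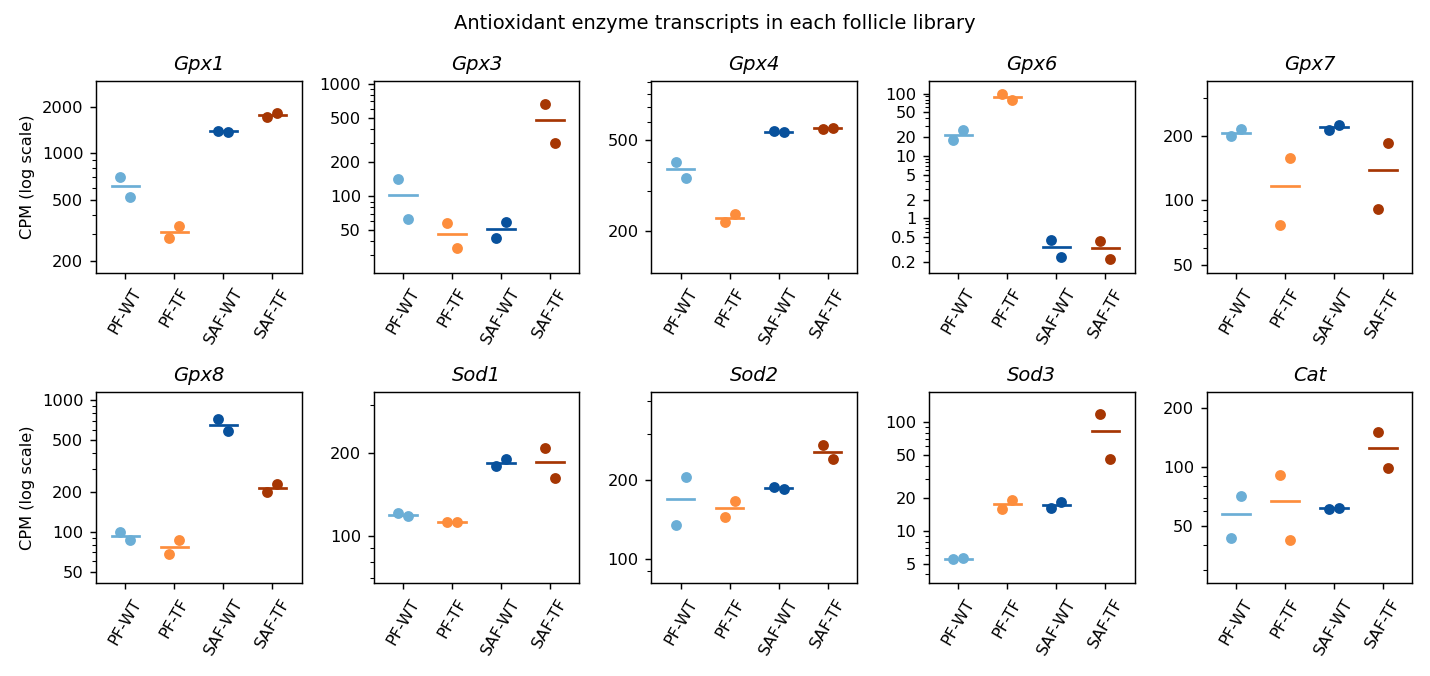
Level of each of the 10 genes in the 8 libraries, in CPM on a log axis that differs between panels, with the group mean as a bar (n = 2 libraries per group). Gpx6 falls from 18.25 to 99.4 CPM in the PF libraries to under 0.5 CPM in the SAF libraries, Gpx3 and Sod3 are highest in SAF-TF, and Gpx8 is highest in SAF-WT.

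Gpx1, the most abundant member per transcript length in every group, was higher in small antral than in preantral follicles of both sources. Its levels were 704 and 525 CPM in PF-WT, 281 and 338 CPM in PF-TF, 1404 and 1372 CPM in SAF-WT, and 1716 and 1839 CPM in SAF-TF. No library of one group overlapped another group, and the order was PF-TF, PF-WT, SAF-WT, SAF-TF. The stage difference was 1.18 ± 0.20 in WT (adjusted p = 0.00203, edgeR) and 2.52 ± 0.21 in TF (adjusted p = 3.27e-05). Between sources, Gpx1 was lower in PF-TF than in PF-WT by a fitted -0.99 ± 0.20, which missed the threshold (adjusted p = 0.058). In SAF the difference between sources was 0.36 ± 0.20 (adjusted p = 0.267). Erythroid markers, from cells rich in Gpx1 and catalase, summed to 2023 to 5383 CPM in PF-WT, 9.75 to 338 CPM in PF-TF, 3187 to 3477 CPM in SAF-WT and 306 to 624 CPM in SAF-TF, for the 6 of 9 markers in the tables. They were thus lower in TF at both stages, with none of the 5 tested markers called, and their part in the Gpx1 values was not tested. The stage differences of the sources themselves differed by 1.35 ± 0.28, which also missed the threshold (adjusted p = 0.0641).

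Gpx4, which detoxifies lipid peroxides and is known as the enzyme that holds back ferroptosis, had the same order of stages with smaller differences. It was measured at 403 and 341 CPM in PF-WT, 219 and 237 CPM in PF-TF, 548 and 542 CPM in SAF-WT, and 560 and 568 CPM in SAF-TF. The SAF libraries lay within a narrow band above all PF libraries. Gpx4 was higher in SAF by 1.31 ± 0.18 in TF (adjusted p = 0.000436) and by 0.55 ± 0.18 in WT (adjusted p = 0.0368). The WT call was lost in 9 of 16 alternative analyses, with an adjusted p of up to 0.172 without SAF-WT replicate 1. The tables also list Gm7338, a Gpx4-like locus, at 124 to 141 CPM in PF-WT, 79.1 to 91.0 CPM in PF-TF, 194 to 202 CPM in SAF-WT and 193 to 203 CPM in SAF-TF. Its levels followed the groups as those of Gpx4 did, and how the reads were divided between the loci is not given in the sources used here, so the Gpx4 level is uncertain.

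Gpx3, the secreted selenoenzyme, was the only member called for a difference of its stage effect between the sources. Gpx1 and Gpx8 missed that threshold (adjusted p = 0.0641 and 0.0831, edgeR) but passed it with DESeq2 (adjusted p = 0.0115 and 0.0129). The call therefore does not set Gpx3 apart from these 2 genes. Gpx3 stood at 142 and 63.3 CPM in PF-WT, 57.9 and 35.0 CPM in PF-TF, 43.0 and 59.1 CPM in SAF-WT, and 661 and 300 CPM in SAF-TF. Both SAF-TF libraries exceeded every other library, and the groups PF-TF and SAF-WT overlapped. The gene was higher in SAF-TF than in PF-TF by 3.37 ± 0.49 (adjusted p = 0.000591) and higher in SAF-TF than in SAF-WT by 3.23 ± 0.49 (adjusted p = 0.00702). In WT the stage difference pointed the other way, at -1.01 ± 0.46, and was not called (adjusted p = 0.116). The difference between the stage effects was 4.38 ± 0.67 and passed the threshold (adjusted p = 0.0224). It did not pass without SAF-WT replicate 1 (4.17, adjusted p = 0.0654), without SAF-WT replicate 2 (4.62, adjusted p = 0.0776) or without SAF-TF replicate 1 (3.70, adjusted p = 0.0523). The source difference in SAF did not pass without SAF-WT replicate 1 (3.02, adjusted p = 0.0682).

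Other cell types' transcripts were also abundant in SAF-TF, beside Gpx3. The summed level of 7 luteal markers was 698 to 1022 CPM in PF-WT, 1696 to 2923 CPM in PF-TF, 3228 to 3949 CPM in SAF-WT and 23120 to 28150 CPM in SAF-TF. All 7 were called higher in SAF-TF than in SAF-WT, 2 of them being in the theca list too. Hsd3b1, which is in both lists, made up most of the luteal sum outside SAF-TF. Its means were 781 CPM in PF-WT, 2230 CPM in PF-TF and 3427 CPM in SAF-WT. The 7 macrophage markers summed to 93.7 to 477 CPM, 22.7 to 41.5 CPM, 250 to 312 CPM and 651 to 1045 CPM in the same order, with 3 of 7 called higher in SAF-TF than in SAF-WT. Theca and interstitial markers, 8 in the list, summed to 3809 to 4503 CPM in SAF-WT and 14260 to 24740 CPM in SAF-TF, with Cyp11a1, Hsd3b1, Lhcgr and Star called higher in SAF-TF and Cyp17a1, Insl3, Ptch1 and Hhip called lower. Mean levels in SAF-TF were 12770 CPM for Hsd3b1 and 5240 CPM for Cyp11a1, against 3.76 CPM for Insl3, which was at 83.6 CPM in SAF-WT. No listed marker present in the tables was without counts in any group. Whether these cells carry the Gpx3 transcript was not tested.

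**Figure D2:**
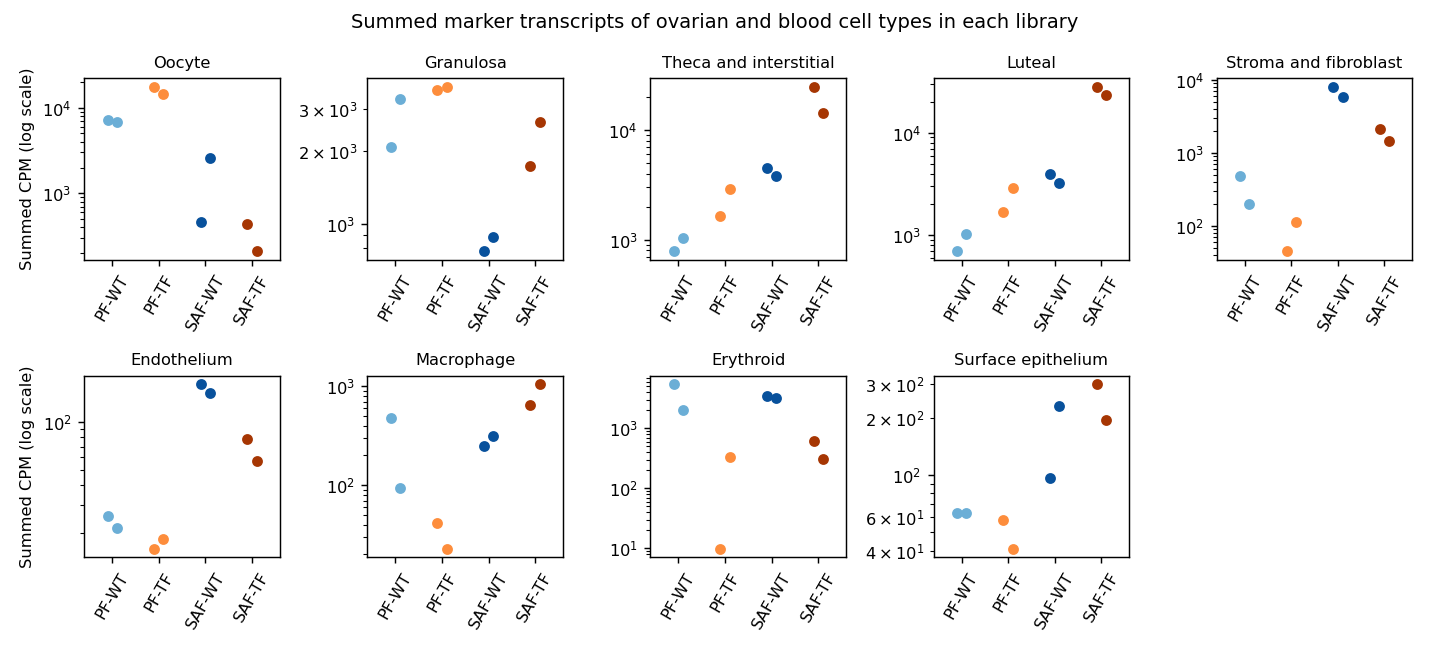
Summed CPM (log axis) of marker genes for 9 cell types, 1 point per library, grouped as in the plot of the enzyme levels. Oocyte markers are lowest in the SAF libraries, the luteal and theca sums are highest in SAF-TF, and the stroma sum is highest in SAF-WT. Hsd3b1 and Cyp11a1 make up most of the theca sum in SAF-TF, where Cyp17a1, Insl3, Ptch1 and Hhip are below SAF-WT.

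Gpx6, whose mouse protein carries cysteine in place of selenocysteine and which is otherwise best known from olfactory tissue, was a transcript of preantral follicles in these data. Its counts in the replicates were 139 and 231 for PF-WT, 897 and 780 for PF-TF, and 4 and 2 for each SAF group. As CPM these were 18.25 and 25.6 for PF-WT, 99.4 and 78.3 for PF-TF, 0.459 and 0.237 for SAF-WT, and 0.440 and 0.226 for SAF-TF. Every PF library was far above every SAF library, and each PF-TF library was above each PF-WT library. The stage difference was -5.92 ± 0.46 in WT (adjusted p = 5.27e-05) and -8.0 ± 0.47 in TF (adjusted p = 1.78e-05), and its size rests on 6 counts in each SAF group. Within PF, Gpx6 was higher in TF by 2.01 ± 0.31 (adjusted p = 0.0489), a fitted fold of 4.04. That call was lost in 8 of 15 alternative analyses, with an adjusted p of up to 0.211 without PF-TF replicate 1. The SAF groups, with 6 counts each, are too low in Gpx6 for a fold between them.

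The 12 oocyte markers summed to 6713 to 7239 CPM in PF-WT, 14450 to 17590 CPM in PF-TF, 462 to 2560 CPM in SAF-WT and 210 to 440 CPM in SAF-TF, the same order of the PF groups as for Gpx6. Of the 12, 7 were called lower in SAF within WT and all 12 within TF, and none was called between PF-TF and PF-WT, where their median log2 difference was 1.24. The SAF-WT library with the larger oocyte sum, replicate 2 at 2560 CPM, had 2 Gpx6 counts, and replicate 1, at 462 CPM, had 4. The part of oocyte content in the Gpx6 difference was not tested.

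The sequence before the start of Gpx6 is shown because its stage difference was the largest of the 10 genes. These are 172 bases of the RefSeq promoter window (GRCm38.p6, plus strand), ending just before the first transcribed base in GENCODE, with E-boxes, the letters CANNTG, in capitals.
Gpx6 upstream (chr13:21311953-21312124, plus strand): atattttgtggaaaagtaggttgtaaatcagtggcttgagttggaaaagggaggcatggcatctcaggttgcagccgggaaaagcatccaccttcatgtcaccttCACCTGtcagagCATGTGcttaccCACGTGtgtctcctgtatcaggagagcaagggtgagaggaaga
The E-box is the letter pattern bound by basic helix-loop-helix factors, among them the oocyte factor Figla. The Figla transcript was at 23.75 to 27.2 CPM in PF-WT and 13.4 to 54.0 CPM in SAF-WT, and was not called between them. In TF it was called lower in SAF, at 51.2 to 55.0 CPM in PF-TF and 2.93 to 4.29 CPM in SAF-TF. Binding of Figla at Gpx6 was not tested. The full window of 300 bases, 250 before and 50 after the start, holds 4 E-boxes, of which 3 are in the printed stretch. At least 1 is found in 72.3% of 32851 windows of that length over the genome, and at least 4 in 6.49%. The motif reads the same on both strands, so each was counted once. Of the 9 members with such a window, Gpx4 and Gpx7 also held E-boxes. TAATTG, the element of the oocyte factor Nobox, was searched on both strands and is in 8.0% of windows. It was not in the Gpx6 window and occurred at 2 places in a Gpx4 window. The antioxidant response element core TGACNNNGC, searched on both strands and found in 12.4% of windows, had 1 match among the members, in Sod1.

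Gpx8, a membrane peroxidase of the endoplasmic reticulum, was most abundant in wild type small antral follicles. It was at 101 and 86.5 CPM in PF-WT, 67.9 and 86.4 CPM in PF-TF, 728 and 584 CPM in SAF-WT, and 201 and 234 CPM in SAF-TF. Both SAF groups lay above all PF libraries, and SAF-WT lay above SAF-TF. The stage difference was 2.81 ± 0.23 in WT (adjusted p = 5.77e-05) and 1.49 ± 0.22 in TF (adjusted p = 0.00059). SAF-TF was lower than SAF-WT by a fitted -1.59 ± 0.22 (adjusted p = 0.00487), a call lost without SAF-TF replicate 1 (-1.48, adjusted p = 0.0629). The stage effects differed by -1.32 ± 0.30, which missed the threshold (adjusted p = 0.0831). The 8 stroma and fibroblast markers had the same order of groups, with sums of 203 to 492 CPM in PF-WT, 44.7 to 112 CPM in PF-TF, 5784 to 8129 CPM in SAF-WT and 1480 to 2149 CPM in SAF-TF. All 8 were called higher in SAF at both sources, and 3 of 8 were called lower in SAF-TF than in SAF-WT. The 6 endothelium markers had this order of groups too. They summed to 21.5 to 25.7 CPM in PF-WT and 15.95 to 18.6 CPM in PF-TF. In SAF-WT the sum was 150.5 to 171.6 CPM and in SAF-TF 56.7 to 77.5 CPM. Of these 6, 3 were called higher and 1 lower in SAF in WT, and 4 higher in TF. Between sources, 1 was called lower in SAF-TF. The part of stroma or endothelium in the Gpx8 difference was not tested.

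Gpx7, the soluble relative of Gpx8 in the same compartment, was not called in any comparison. Its levels were 200 and 215 CPM in PF-WT, 76.9 and 158 CPM in PF-TF, 214 and 225 CPM in SAF-WT, and 90.8 and 186 CPM in SAF-TF. The TF groups spread widely and lay below the WT group of the same stage. The fitted source differences were -0.82 ± 0.38 in PF (adjusted p = 0.25) and -0.66 ± 0.37 in SAF (adjusted p = 0.271). The stage differences were 0.08 ± 0.37 in WT and 0.24 ± 0.37 in TF.

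Sod3, the extracellular dismutase, had the largest differences of its family. It was at 5.51 and 5.66 CPM in PF-WT, 16.1 and 19.5 CPM in PF-TF, 16.3 and 18.6 CPM in SAF-WT, and 119 and 45.9 CPM in SAF-TF. PF-TF and SAF-WT overlapped, PF-WT was below them, and SAF-TF was above. The stage difference was 1.64 ± 0.43 in WT (adjusted p = 0.0164) and 2.22 ± 0.42 in TF (adjusted p = 0.0023). SAF-TF was higher than SAF-WT by 2.24 ± 0.42 (adjusted p = 0.0139), and PF-TF exceeded PF-WT by 1.67 ± 0.43, which missed the threshold (adjusted p = 0.082). The stage effects differed by 0.58 ± 0.59 (adjusted p = 0.71). The SAF source call was lost without SAF-WT replicate 1 (2.15, adjusted p = 0.115), SAF-WT replicate 2 (2.34, adjusted p = 0.0752) or SAF-TF replicate 1 (1.40, adjusted p = 0.136). The WT stage call was lost without PF-WT replicate 2 (1.66, adjusted p = 0.0654), SAF-WT replicate 1 (1.73, adjusted p = 0.0539) or SAF-WT replicate 2 (1.54, adjusted p = 0.0663). Sod3 is on chr5:52363791-52371418 in GENCODE M21, with a single annotated transcript.

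Sod1, the cytosolic copper and zinc enzyme, had the smallest fitted differences between sources of the 10 genes. Levels were 121 and 118 CPM in PF-WT, 112 and 112 CPM in PF-TF, 179 and 190 CPM in SAF-WT, and 209 and 163 CPM in SAF-TF. Small antral libraries were all above preantral libraries. Sod1 was higher in SAF by 0.63 ± 0.20 in WT (adjusted p = 0.0313) and by 0.73 ± 0.20 in TF (adjusted p = 0.0139). The WT call was lost in 4 of 16 alternative analyses, at most at an adjusted p of 0.156 without SAF-WT replicate 2, and the TF call in 2, at most at 0.123 without SAF-TF replicate 1. The fitted source differences were -0.09 ± 0.19 in PF (adjusted p = 0.843) and 0.01 ± 0.19 in SAF (adjusted p = 0.991). Sod1 lies on chr16:90220754-90226329. Ccs, the chaperone that loads copper into Sod1, was at 48.3 to 65.7 CPM in PF-WT, 44.2 to 54.7 CPM in PF-TF, 90.2 to 95.6 CPM in SAF-WT and 132 to 190 CPM in SAF-TF, and was called higher in SAF in TF (1.70 ± 0.26, adjusted p = 0.000753). In WT the Ccs difference of 0.70 ± 0.26 missed the threshold (adjusted p = 0.0567) and passed it in 8 of 16 alternative analyses.

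Sod2, the mitochondrial manganese enzyme, was at 134 and 204 CPM in PF-WT, 145 and 166 CPM in PF-TF, 188 and 185 CPM in SAF-WT, and 271 and 241 CPM in SAF-TF. Both SAF-TF libraries lay above all others, and the PF-WT libraries spanned the values of PF-TF and SAF-WT. The stage difference was 0.72 ± 0.23 in TF (adjusted p = 0.0293) and 0.14 ± 0.23 in WT (adjusted p = 0.666). The TF call was lost in 5 of 16 alternative analyses, with an adjusted p of up to 0.139 without SAF-TF replicate 1. Between sources, SAF-TF minus SAF-WT was 0.46 ± 0.23 (adjusted p = 0.219). The stage effects differed by 0.58 ± 0.32 (adjusted p = 0.44). Sod2 is on chr17:13006846-13040063.

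Catalase, on chr2:103453849-103485160, was at 43.5 and 71.4 CPM in PF-WT, 91.4 and 42.8 CPM in PF-TF, 61.4 and 62.2 CPM in SAF-WT, and 151 and 98.8 CPM in SAF-TF. SAF-TF held the highest values and the other groups overlapped. No comparison called it, with differences of 0.90 ± 0.38 between stages in TF (adjusted p = 0.0815) and 1.01 ± 0.38 between sources in SAF (adjusted p = 0.114). The TF stage difference was called in 6 of 16 alternative analyses, at an adjusted p down to 0.00798 without PF-TF replicate 1. In the list of 12 other peroxisome genes, Pex13 and Pex14, parts of the peroxisomal import machinery, were called lower in SAF at both sources, and none was called higher between stages. The Pex14 difference in TF was -2.07, and it was -1.16 without PF-TF replicate 1 (adjusted p = 0.0918) and -1.66 without SAF-TF replicate 2 (adjusted p = 0.0796). The median stage difference of the 12 was -0.19 in WT and 0.10 in TF.

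**Figure D3:**
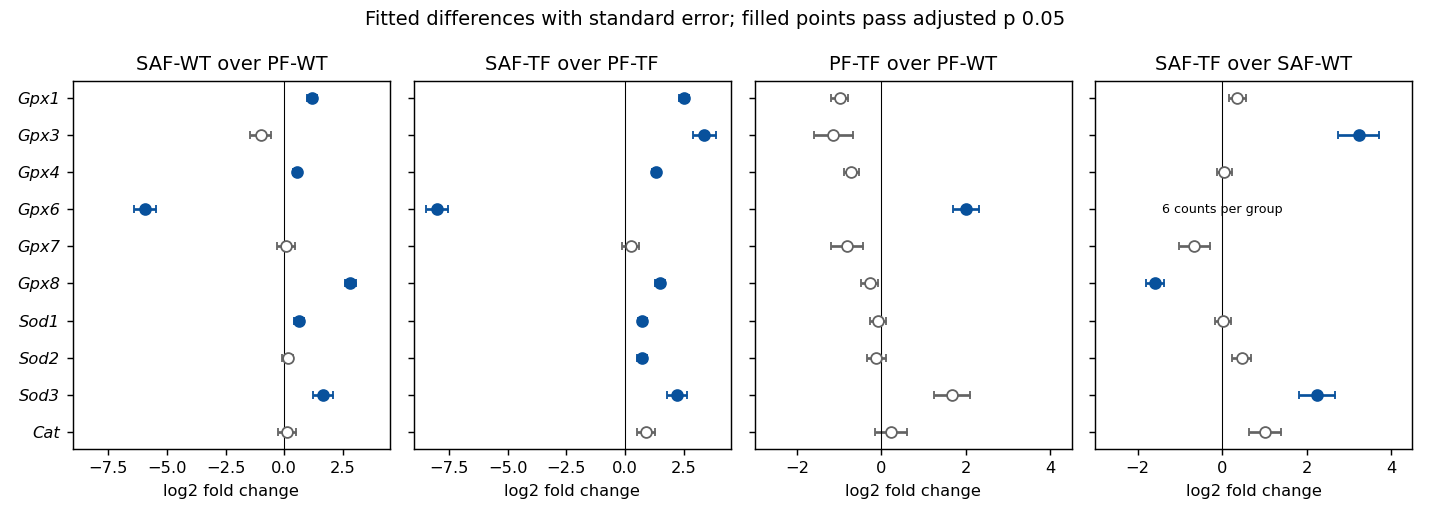
Fitted log2 fold change ± SE of each gene in the 4 pairwise comparisons (n = 2 libraries per group), with filled points at an adjusted p under 0.05. The stage panels use a wider axis than the source panels, and no value is drawn for Gpx6 between the SAF groups, which have 6 counts each.

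Stage differences were common both in the members and in all genes. Each group enters more than 1 comparison, so the comparisons share libraries. In WT, 6 of 10 members were called, 5 higher and 1 lower in SAF, where 35.1% of all tested genes were called, 12.7% higher and 22.5% lower. In TF, 8 of 10 were called, 7 higher and 1 lower, where 43.2% of all genes were called, 18.2% higher and 25.0% lower. The median log2 stage difference was 0.35 over the members and -0.20 over all genes in WT, and 1.10 and -0.08 in TF. The split between higher and lower calls over all genes depended on the scaling. Higher calls made up 36.0% of calls in WT and 42.1% in TF, but 53.5% and 56.2% with the authors' scale factors, which moved the median of all genes to 0.14 and 0.27. They made up 54.3% and 51.5% with a correction for GC content and transcript length. Of the members called higher, Gpx1 and Gpx8 kept the call in all 16 alternative analyses in WT, and Gpx1, Gpx3, Gpx4, Gpx8 and Sod3 did so in TF. Gpx6 was called lower in all 16 at both sources.

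Source differences were rarer. In PF, 1 of 10 members was called, Gpx6 higher in TF, where 0.218% of all genes were called, 0.0669% higher and 0.151% lower. In SAF, 3 of 10 were called, Gpx3 and Sod3 higher and Gpx8 lower in TF, where 9.96% of all genes were called, 4.61% higher and 5.34% lower. For the difference between stage effects, Gpx3 alone was called among the members, beside 0.904% of all genes, 0.658% with a larger and 0.245% with a smaller effect in TF. Median log2 source differences of the members were -0.20 in PF and 0.20 in SAF, against -0.03 and 0.00 over all genes. Groups without overlapping libraries were usual at this size. They were found for 7 and 9 members between stages in WT and TF, where 70.9% and 74.2% of all genes had them, and for 8 members between sources at either stage, where 49.0% (PF) and 63.8% (SAF) of all genes did.

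The deposited tables carry the authors' own comparison of SAF with PF, made within each source with an unnamed test. For Gpx3, the authors' deposited table gives a log2 ratio of 3.71 in TF (FDR 7.60e-07) and -0.68 in WT (FDR 0.861). For Gpx6 the authors' deposited table gives -7.72 in TF and -5.63 in WT. The authors' deposited table lists an FDR of 0.00354 for Cat in TF at a log2 ratio of 1.25, and an FDR of 0 for Gpx7 in WT at a log2 ratio of 0.43, neither of which was called here. The authors' log2 ratio lies above the fitted value given here for every member at both sources, and the scaling of the libraries differs between them.

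Shares within each family were taken from CPM per kilobase of the longest protein-coding transcript, since levels of different genes are comparable only per length. Among the glutathione peroxidases, Gpx1 held 44.6% ± 2.43 of the family sum in PF-WT, 37.1% ± 0.716 in PF-TF, 48.4% ± 1.21 in SAF-WT and 58.3% ± 2.85 in SAF-TF (SD, n = 2). Gpx4 followed with 29.3% ± 1.03, 29.5% ± 1.58, 20.5% ± 0.677 and 19.9% ± 0.193 in the same order. The Gpx4 share was lower in SAF while the Gpx4 level was higher. The family sum was 1141 to 1416 CPM per kilobase in PF-WT, 717 to 839 in PF-TF, 2598 to 2752 in SAF-WT and 2842 to 2843 in SAF-TF.

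The remaining peroxidases marked the groups apart. Gpx6 made up 6.96% and 10.3% of the family in the PF-TF libraries, 0.962% and 1.68% in PF-WT, and under 0.02% in each SAF library. Gpx8 made up 21.6% and 25.4% in SAF-WT and between 6.79% and 9.88% in the 6 other libraries. Gpx3 made up 6.61% and 14.6% in SAF-TF and between 0.981% and 6.30% elsewhere. Gpx7 ranged from 8.32% to 14.6% in PF and from 2.48% to 6.73% in SAF. Grouped by the codons printed above, the genes with a TGA codon held 76.4% to 81.2% of the family in PF-WT, 68.6% to 72.3% in PF-TF, 68.6% to 71.7% in SAF-WT and 87.0% to 90.7% in SAF-TF. The cysteine genes contributed 266 to 269 CPM per kilobase in PF-WT, 199 to 264 in PF-TF, 736 to 865 in SAF-WT and 264 to 369 in SAF-TF. In PF-TF they were Gpx6 at 66.3, Gpx7 at 90.9 and Gpx8 at 74.0 CPM per kilobase, and in SAF-WT Gpx8 at 630 and Gpx7 at 170.

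**Figure D4:**
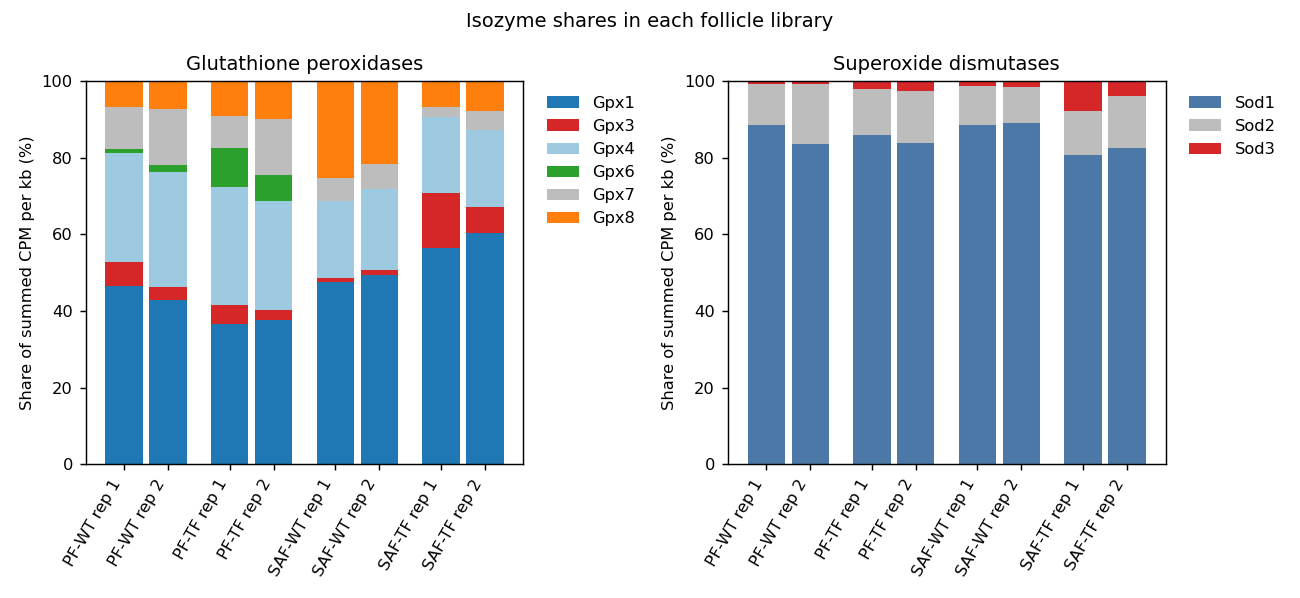
Share of each gene in the summed CPM per kilobase of its family, in percent, 1 bar per library. Gpx6 is visible as a band only in the PF libraries, Gpx8 takes its largest band in SAF-WT, Gpx3 and Sod3 take theirs in SAF-TF, and Gpx1 and Sod1 lead in every library.

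Among the dismutases, Sod1 held 86.0% ± 3.58 in PF-WT, 84.8% ± 1.30 in PF-TF, 88.7% ± 0.409 in SAF-WT and 81.6% ± 1.41 in SAF-TF (SD, n = 2). The Sod3 share was 0.688% and 0.694% for PF-WT, 1.38% and 1.49% for SAF-WT, 2.11% and 2.49% for PF-TF, and 4.0% and 7.91% for SAF-TF, with no overlap between groups. The order of Sod1 and Sod2 depends on the length used for them. Sod1's longest protein-coding transcript has 641 bases and that of Sod2 has 5861. With the median transcript length in its place, Sod1 held 18.6%, 18.2%, 23.4% and 17.6% in the order of groups above, and without length scaling 41.1%, 39.4%, 47.5% and 35.5%. The lead of Sod1 over Sod2 is therefore not settled by gene counts. Dismutase sums were 213 to 220 CPM per kilobase in PF-WT, 204 to 209 in PF-TF, 315 to 334 in SAF-WT and 307 to 404 in SAF-TF.

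Ordered by mean CPM per kilobase of the longest protein-coding transcript over the whole set, Gpx1 led in all groups, at 573 ± 118 in PF-WT, 289 ± 37.5 in PF-TF, 1295 ± 20.6 in SAF-WT and 1658 ± 81.3 in SAF-TF. In both PF groups it was followed by Gpx4, Sod1, Gpx7 and Gpx8, where Gpx7 and Gpx8 overlapped in PF-TF. In SAF-WT the order was Gpx1, Gpx8, Gpx4, Sod1 and Gpx7, without overlap between these neighbours. In SAF-TF it was Gpx1, Gpx4, Gpx3, Sod1 and Gpx8, where Gpx3 and Sod1 overlapped. Sod2 and Cat were neighbours that overlapped in all groups except SAF-WT. The lowest member was Sod3 in PF-WT (1.495) and PF-TF (4.75) and Gpx6 in SAF-WT (0.260) and SAF-TF (0.248), all as CPM per kilobase. The places below Gpx1 depend on the length used. Per kilobase of the median transcript length, Gpx1 still led in all groups and Gpx4 followed in all, overlapping Gpx3 in SAF-TF. Gpx4 at 742 ± 5.83 and Gpx8 at 725 ± 113 then overlapped in SAF-WT. Sod1 was then below Gpx7, Gpx8 and Sod2 in all groups, at 51.7 ± 0.899 against 234 ± 68.3 for Sod2 in PF-WT (SD, n = 2).

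The genes with the most similar patterns were looked up for the 4 members with the widest range of group means, by Pearson's r of log2 CPM over the 8 libraries among 8919 genes. These values are a description, and the libraries of a group share their stage and source. For Gpx6 they were Bcar3 (0.999), D1Ertd622e (0.998) and Med17 (0.997). Bcar3 was at 70.2 to 78.9 CPM in PF-WT, 109 to 128 CPM in PF-TF, 19.0 to 22.1 CPM in SAF-WT and 16.8 to 19.8 CPM in SAF-TF, the same order as Gpx6 over a smaller range. For Gpx3 they were Tmem167b (0.981), H2-Eb1 (0.976) and Kctd1 (0.968). H2-Eb1, a class II histocompatibility gene of antigen-presenting cells, was at 43.2 to 57.2 CPM in SAF-TF and at 2.33 to 10.4 CPM in the other libraries. For Sod3 they were Bin1 (0.989), Ctsf (0.986) and Grtp1 (0.983), and for Gpx8 they were Ccl27a (0.996), Mcee (0.995) and Dnajc25 (0.993).

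The wider antioxidant system was described with 8 lists of 94 genes in all, of which 90 were tested. Between stages, 28 were called higher and 17 lower in WT, with a median of 0.28, and 38 higher and 11 lower in TF, with a median of 0.56. Between sources, 1 was called lower in PF-TF, and 9 were called higher and 7 lower in SAF-TF. The counts and medians here and of each list below stand beside those of all tested genes. Between stages, 12.7% of all genes were called higher and 22.5% lower in WT, with a median of -0.2. In TF the shares were 18.2% and 25.0%, with a median of -0.08. Between sources, 0.0669% were called higher and 0.151% lower in PF, and 4.61% and 5.34% in SAF.

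A list of 17 tested genes joined factors of selenoprotein synthesis with other selenoproteins, which share the selenium supply of Gpx1, Gpx3 and Gpx4. Of these 17, 7 were called higher in SAF in WT and 10 in TF, and 3 and 2 were called lower. The lower calls were all in what was listed as the synthesis part. The higher calls were of selenoproteins in WT and of both parts in TF. This division holds for this list only. Txnrd1 and Txnrd3, kept in the thioredoxin list, were called lower in SAF in WT, and Txnrd3 also in TF. The median log2 stage difference over the mixed list was 0.49 in WT and 0.74 in TF. Sepp1, the selenium carrier secreted into plasma, was at 46.9 to 62.0 CPM in PF-WT, 39.9 to 41.0 CPM in PF-TF, 254 to 302 CPM in SAF-WT and 256 to 331 CPM in SAF-TF. It differed between stages by 2.35 ± 0.23 in WT (adjusted p = 0.000121) and 2.86 ± 0.24 in TF (adjusted p = 3.23e-05). Sephs2, which makes the selenium donor for selenocysteine, went the other way, by -1.92 ± 0.40 in WT (adjusted p = 0.00545) and -1.96 ± 0.39 in TF (adjusted p = 0.00323). Between sources, Selk was the only gene of this list called, lower in SAF-TF than in SAF-WT (-1.17 ± 0.22, adjusted p = 0.0145).

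Glutathione is a substrate of Gpx1, Gpx3 and Gpx4. A list of 12 genes joined its synthesis and recycling with glutaredoxins and sources of NADPH. In WT, 6 of the 12 were called lower in SAF, Glrx and Glrx5 among them, and 2 higher, Glrx2 and Idh1. In TF, 4 were called lower and 3 higher, and the medians were -0.72 in WT and -0.0 in TF. Slc7a11, the cystine transporter that feeds glutathione synthesis, was at 46.4 to 100.3 CPM in PF-WT and 50.5 to 56.6 CPM in PF-TF but at 3.79 to 6.99 CPM in SAF-WT and 3.96 to 4.96 CPM in SAF-TF. G6pdx, which supplies NADPH through the pentose phosphate pathway, was lower in SAF by a fitted -2.91 ± 0.37 in WT (adjusted p = 0.000452) and -2.60 ± 0.36 in TF (adjusted p = 0.000467). Idh1, another cytosolic NADPH source, was higher in SAF by 3.22 ± 0.34 in TF (adjusted p = 0.000113) and 0.94 ± 0.32 in WT (adjusted p = 0.0451). It was at 178 to 181 CPM in SAF-WT and 597 to 1207 CPM in SAF-TF, a source difference of 2.33 ± 0.33 (adjusted p = 0.00557).

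Peroxiredoxins and thioredoxins, the other peroxide-reducing system, were called higher in SAF for 4 of 13 in WT and 6 of 13 in TF, and lower for 2 and 1, with medians of 0.31 and 0.75. Prdx1 was at 3930 to 3950 CPM in PF-WT, 3214 to 3243 CPM in PF-TF, 6153 to 6892 CPM in SAF-WT and 5912 to 6075 CPM in SAF-TF, and was called higher in SAF at both sources. Txn1, the cytosolic thioredoxin, was the list gene called between sources in PF, with 471 to 568 CPM in PF-WT and 223 to 241 CPM in PF-TF (-1.16 ± 0.18, adjusted p = 0.0489). That call was lost in 11 of 15 alternative analyses, at most at an adjusted p of 0.285 without PF-TF replicate 1. Txnip, which binds and inhibits thioredoxin, was higher in SAF-TF than in SAF-WT by 1.79 ± 0.29 (adjusted p = 0.00895).

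Among glutathione S-transferases, which conjugate glutathione to foreign and endogenous compounds, 7 of 12 were called higher in SAF at each source and 1 lower in WT, with medians of 0.82 and 1.24. The microsomal Mgst2 was at 9.29 to 9.83 CPM in SAF-WT and 123 to 161 CPM in SAF-TF, whereas Gsta2 was at 82.5 to 119 CPM in SAF-WT and 9.81 to 12.8 CPM in SAF-TF. The SAF source difference was 3.89 ± 0.65 for Mgst2 (adjusted p = 0.00981) and -3.16 ± 0.52 for Gsta2 (adjusted p = 0.00921). In the list of the Nrf2 pathway, the regulator of inducible antioxidant genes, 3 of 8 were called higher in SAF in WT, and 4 higher and 1 lower in TF, with medians of 0.26 and 0.91. Hmox1, which breaks down heme, was at 10.6 to 13.1 CPM in SAF-WT and 47.1 to 73.9 CPM in SAF-TF (2.35 ± 0.38, adjusted p = 0.00864), and Ftl1, the ferritin light chain, was also called higher in SAF-TF.

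Of 7 copper and metallothionein genes, 4 were called higher in SAF at each source and none lower, with medians of 1.07 in WT and 1.70 in TF. The zinc and copper binding Mt1 was at 181 to 398 CPM in PF-WT, 63.2 to 84.9 CPM in PF-TF, 547 to 669 CPM in SAF-WT and 1507 to 1563 CPM in SAF-TF, and its stage effects differed by 3.30 ± 0.47 (adjusted p = 0.0188). The sources of oxidants were a list of 9 tested oxidase genes, of which 1 was called higher and 1 lower in SAF in WT, and 4 higher and 1 lower in TF, with medians of 0.11 and 2.23. Xdh, xanthine dehydrogenase, was at 44.7 to 69.2 CPM in SAF-WT and 1.92 to 3.08 CPM in SAF-TF (-4.50 ± 0.48, adjusted p = 0.00177). Cybb, the phagocyte oxidase subunit, was at 0.222 to 0.301 CPM in PF-TF and 7.59 to 17.1 CPM in SAF-TF, beside the macrophage sums given above. The difference was 5.48 ± 0.96 (adjusted p = 0.00156, edgeR), and its size rests on PF-TF values at or below the limit of 3 counts. In WT, Cybb was at 1.44 to 8.27 CPM in PF and at a mean of 3.79 CPM in SAF. It was not called there (-0.34 ± 0.73, adjusted p = 0.742).

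Of the 28 called differences of single genes in these lists that are named above, 14 were called in every alternative analysis that tested them. Among them were those of Sepp1, G6pdx and Slc7a11 at both sources and of Xdh in SAF. Those of Ccs, Cybb, Idh1, Prdx1 and Sephs2 between stages in TF were also among them. Without SAF-WT replicate 1, the SAF source calls of Selk, Idh1, Txnip, Mgst2, Gsta2, Hmox1 and Ftl1 were lost, at adjusted p-values from 0.0546 for Idh1 to 0.104 for Selk, as were the WT stage calls of Sephs2, Prdx1, Pex14 and Idh1 and the interaction of Mt1. The fitted differences of these genes kept their sign in all alternatives run. Without SAF-WT replicate 2, the SAF source calls of Selk, Txnip, Mgst2, Hmox1 and Ftl1 and the Mt1 interaction were lost, and without SAF-TF replicate 1 those of Selk, Txnip, Mgst2, Gsta2 and Hmox1.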

How the data were processed

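Per the labels' protocols, single follicles were separated by needle and cDNA was made with the SMARTer Ultra Low Input kit. Alignment used HISAT2 2.0.1 and GRCm38, per the submitters' processing notes. For the read counter, annotation and strand setting, the sources used here give nothing. Per the file headers, the authors deposited raw counts per gene, a normalized signal per group, a log2 ratio of SAF to PF and an adjusted p-value (FDR) per source. The tables list 22129 (TF) and 22138 (WT) genes. The 21997 in both were analysed here with edgeR 4.0.16 (R 4.3.3). Settings were filterByExpr (min.count 10, min.total.count 15), TMM factors, 1 mean per group over all 8 libraries and 4 residual degrees of freedom, with a common biological coefficient of variation of 0.303. SE is the fold change divided by the root of the F statistic. The pipeline was tested on simulated data. Alternatives were RLE and the authors' factors, filters, DESeq2 1.42.0, fewer libraries, a replicate block, a GC content and length correction, left-out libraries and other transcript lengths, of which the longest transcript of any kind was added after the data were seen. The 10 members and all lists were chosen with earlier results of these data known. Values are printed for all members and, per list and comparison, for some of up to 3 genes of smallest p in each direction. Ccs is named outside that rule, after its values were seen, as the chaperone of Sod1. Similar genes are the 3 of highest r with a mean of at least 10 CPM.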

Additional observations from a re-analysis of the deposited data

Results flagged for a closer look

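The stage difference of Gpx3 was called as different between the sources. It was 4.38 larger on the log2 scale in TF than in WT, by the test of the difference itself (edgeR quasi-likelihood, adjusted p = 0.0224), with both SAF-TF libraries above and both SAF-WT libraries below the PF-WT libraries.

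For Gpx1 both PF-TF libraries were below both PF-WT libraries, whereas both SAF-TF libraries were above both SAF-WT libraries. The source effects differed by 1.35, which missed the threshold (adjusted p = 0.0641). Gpx4 had the same pattern of libraries, with source effects that differed by 0.75 (adjusted p = 0.191). Its SAF source difference of 0.05 changed sign with RLE factors, at -0.01.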

How the results depend on the processing

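Of the members' fitted differences, 673 of the values under the alternatives kept their direction and call, 39 lost the call, 21 gained it and 22 changed sign, the last all for differences that were not called. Replicate numbers did not pair the libraries, with correlations of deviations between -0.10 and 0.08. With the replicate number as a block, genes called numbered 6 in PF and 1069 in SAF between sources and 74 for the interaction, and members called between sources in PF fell to 0, with Gpx6 at an adjusted p of 0.112. No filter on low counts gave 207 genes and 2 members in PF. With the 4 libraries compared alone, 3 genes and 0 members were called in PF, and 3921 genes and 5 members in SAF. DESeq2 called 1238 genes and 4 members between sources in PF, 2771 genes in SAF, and 793 genes and 3 members for the interaction. The GC content and length correction called 1121 genes between sources in SAF and 2 members, Gpx3 and Gpx8, for the interaction.

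Leaving out each library in turn gave, for the stage effect in WT, 3075 to 6594 genes and 3 to 6 members, and for the stage effect in TF 5136 to 8166 genes and 6 to 9 members. Source effects ranged from 1 to 935 genes and 0 to 3 members in PF (935 without PF-WT replicate 2, 1 without PF-TF replicate 1), and from 143 to 2468 genes and 1 to 4 members in SAF (143 without SAF-TF replicate 1). The interaction ranged from 28 to 343 genes and 0 to 2 members. Where a group was left with 1 library, it was assumed to vary like the others.

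Signs changed as follows. With RLE factors, SAF source differences were -0.01 for Gpx4 and -0.05 for Sod1, and with DESeq2 also -0.01 and -0.05. With the GC content and length correction they were -0.32 for Gpx4 and -0.03 for Sod1, PF source differences were 0.22 for Gpx8 and 0.04 for Sod2, and the Gpx7 interaction was -0.22. With left-out libraries, the WT stage effect ranged from -0.02 to 0.47 for Sod2 and from -0.09 to 0.50 for Cat, and the TF stage effect from -0.37 to 1.00 for Gpx7. The PF source difference ranged from -0.35 to 0.22 for Sod2 and from -0.42 to 0.65 for Cat, and that in SAF from -0.17 to 0.18 for Sod1. The interaction ranged from -0.44 to 0.87 for Gpx7, -0.08 to 0.27 for Sod1 and -0.26 to 1.12 for Sod3. The cause was not tested.

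Family shares moved with the transcript length. By median length Gpx1 held 41.7% in PF-WT, 34.5% in PF-TF and 54.6% in SAF-TF, and without length scaling 35.7% in PF-TF. Sod1 held, for wild type PF, transplant PF, wild type SAF and transplant SAF follicles in turn, 18.6%, 18.2%, 23.4% and 17.6% by median length, 41.1%, 39.4%, 47.5% and 35.5% without scaling, and 50.2%, 47.5%, 56.0% and 41.8% by the longest transcript of any kind, which for Sod1 retains an intron. Depth limits Gpx6 in SAF, at 2 to 4 counts per library, and its difference between the SAF groups is left out here. The authors' factors were set within each table and gave no source differences.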
